A study of Homo sapiens with 27 samples.

Results

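The genes described here are 9 neighbours of MMP2 on the long arm of chromosome 16, namely LPCAT2, CAPNS2, SLC6A2, IRX3, IRX5, IRX6, CRNDE, GNAO1 and NUP93. They were listed by name, for their place around MMP2, out of 55882 gene symbols counted in each library, and all 9 are rows of the count files. The list was drawn up with earlier results known, and LPCAT2 was chosen by its lower level in the MMP2sh1 line, measured in these libraries, so the difference of MMP2sh1 from the control is given below as a description, with no test. The cells were U2OS, a human osteosarcoma line, by the paper in 3 stable lines transduced with lentivirus and selected with puromycin. In its account the pLKO.1 control line carried the blank vector. MMP2sh1 and MMP2sh2 each carried 1 short hairpin RNA against MMP2, with 1 line per hairpin. The deposited titles, however, name the control libraries U2OS WT, and whether those cells had been transduced cannot be told from them. If they had not, transduction and selection could not be told apart from the hairpins. Each line was collected 2 days before confluence (day −2, subconfluent), at confluence (day 0) and 2 days later (day +2, overconfluent). Poly(A) RNA was sequenced from 3 libraries per line and day, which the study describes as independent biological replicates, for 27 libraries in all.

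MMP2 encodes a secreted zinc protease of the extracellular matrix. A hairpin RNA is processed to a short RNA that guides the cleavage of a matching mRNA in the cytoplasm. Genes that lie side by side can share enhancers and chromatin domains. The region is known for the Iroquois homeobox genes, whose distant enhancers reach across long stretches of it.

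On GRCh37, the build that the study names hg19, the GENCODE annotation placed MMP2 on the plus strand of chromosome 16 from 55423612 to 55540603, and the 9 genes spanned 2.57 Mb around it. LPCAT2, which encodes an acyltransferase that remakes phosphatidylcholine and makes platelet-activating factor, lay next downstream on the same strand, from 55542984 to 55620578. Only 2380 bases separated its start from the end of MMP2. CAPNS2 (55600596 to 55601599, plus strand) lay inside LPCAT2 and shared none of its exon bases, as an intronic gene of 1 exon. SLC6A2 (55689900 to 55741557, plus strand), GNAO1 (56225302 to 56391356, plus strand) and NUP93 (56764030 to 56884198, plus strand) followed downstream. Upstream of MMP2 lay IRX3 (54317216 to 54320699, minus strand), CRNDE (54879101 to 54963101, minus strand), IRX5 (54964777 to 54968397, plus strand) and IRX6 (55358115 to 55364668, plus strand). CRNDE and IRX5 are transcribed away from each other, with 1675 bases between their starts. Strand was not used in counting, and reads on overlapping exons were dropped. Other annotated genes covered 28.6% of the exon bases of SLC6A2, 4.2% of those of GNAO1, 2.6% of those of LPCAT2 and 1.4% or less of those of the remaining members. For GNAO1, the overlap was with the antisense RNA GNAO1-AS1.

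Each library held between 33580129 and 59374327 reads on genes (median 40075178). Levels are given as CPM, the reads of a gene relative to its library's total after TMM adjustment in edgeR. The osteoblast lineage genes RUNX2, COL1A1 and SPP1 were read in every library (COL1A1 at 1000 to 1490 CPM), as were the mesenchymal genes VIM and FN1. COL1A2 was at 0 to 0.683 CPM, IBSP had 0 reads in all 27 libraries, and SP7 had 0 reads in 15. ALPL was at 0.397 to 6.98 CPM and BGLAP had 0 reads in 5 libraries. Of the markers of other cell types, the T cell gene CD3E had 0 reads in 26 libraries. The leukocyte gene PTPRC had 1 to 59 reads and was read in every library (0.0235 to 1.44 CPM). The epithelial gene EPCAM stayed between 3.12 and 6.73 CPM, CDH1 at 0 to 2.54 and KRT20 at 0 to 0.244, and the endothelial gene CDH5 was at 0 to 0.605. The neuronal genes RBFOX3 (2.33 to 21.9 CPM) and SNAP25 (6.17 to 12.7 CPM) were read in all 27 libraries.

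**Figure D1:**
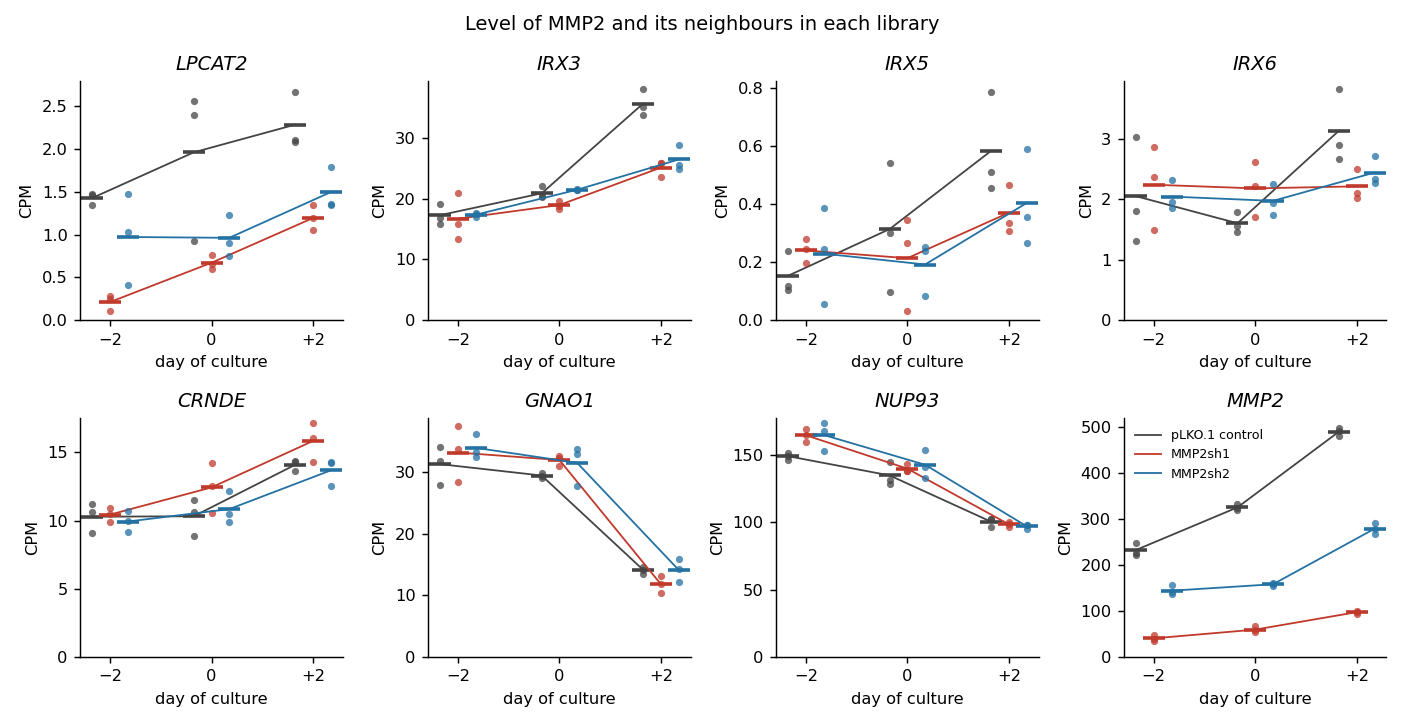
Level in CPM (vertical axis, from 0) of 7 members and of MMP2 by day of culture, with 1 point per library, a bar at the mean of 3 libraries and a line through the means for the pLKO.1 control (grey), MMP2sh1 (red) and MMP2sh2 (blue). LPCAT2 and MMP2 have their lowest means in MMP2sh1 at each day, while GNAO1 and NUP93 drop on day +2 in all 3 lines.

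MMP2, the targeted gene, was at 232.2 ± 14.2 CPM (SD, n = 3) in the control on day −2, at 324.8 ± 6.97 on day 0 and at 489.5 ± 8.50 on day +2. In MMP2sh1 its mean was 17.3%, 18.2% and 19.8% of the control mean on days −2, 0 and +2. In MMP2sh2 it was 61.9%, 48.6% and 56.9%. In both lines every library lay below every control library of the same day. The depletion was thus strong in MMP2sh1 and milder in MMP2sh2. One set of control libraries served both comparisons.

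LPCAT2 was a low gene throughout. In the control on day −2 it had 85, 62 and 46 reads (1.471, 1.468 and 1.345 CPM), on day 0 it had 111, 43 and 105 reads (2.403, 0.9239 and 2.559 CPM), and on day +2 it had 94, 85 and 87 reads (2.668, 2.086 and 2.105 CPM). In MMP2sh1 it had 4, 13 and 10 reads on day −2 (0.1082, 0.2803 and 0.2441 CPM), 36, 31 and 22 on day 0 (0.5953, 0.7638 and 0.6534 CPM), and 46, 41 and 56 on day +2 (1.192, 1.049 and 1.341 CPM). Every MMP2sh1 library lay below every control library of its day. The mean was 14.8% of the control mean on day −2, 34.2% on day 0 and 52.2% on day +2. On the log2 scale the differences were −2.72 (standard error 0.48), −1.55 (standard error 0.36) and −0.94 (standard error 0.28). These values chose the gene and are given with no test. In bulk RNA, fewer cells that express a gene and less RNA per cell cannot be told apart.

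The line with the second hairpin was not used in choosing LPCAT2, although it shares the control libraries. In MMP2sh2, LPCAT2 had 43, 20 and 52 reads on day −2 (1.036, 0.4064 and 1.473 CPM), 44, 27 and 34 on day 0 (1.231, 0.7547 and 0.9006 CPM), and 56, 57 and 76 on day +2 (1.355, 1.341 and 1.795 CPM). The libraries overlapped with the control on days −2 and 0 and lay below it on day +2. The mean was 68.0% of the control on day −2, 49.0% on day 0 and 65.5% on day +2. On day 0 the log2 fold change was −1.04 (standard error 0.35, adjusted p = 0.0449, quasi-likelihood test of edgeR, Benjamini-Hochberg adjusted). It was −0.58 (standard error 0.39, adjusted p = 0.386) on day −2 and −0.61 (standard error 0.27, adjusted p = 0.215) on day +2 in the same test, and neither passed. The call on day 0 was close to the threshold, and it is not read further, since its control libraries took part in choosing LPCAT2. The adjusted p was 0.0688 with DESeq2 and 0.0701 with edgeR on all 27 libraries. It was 0.207 and 0.22 without control replicates 1 and 3, and 0.181 and 0.0965 without MMP2sh2 replicates 2 and 3, with log2 fold changes from −1.38 to −0.80 over the 6 libraries left out in turn.

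**Figure D2:**
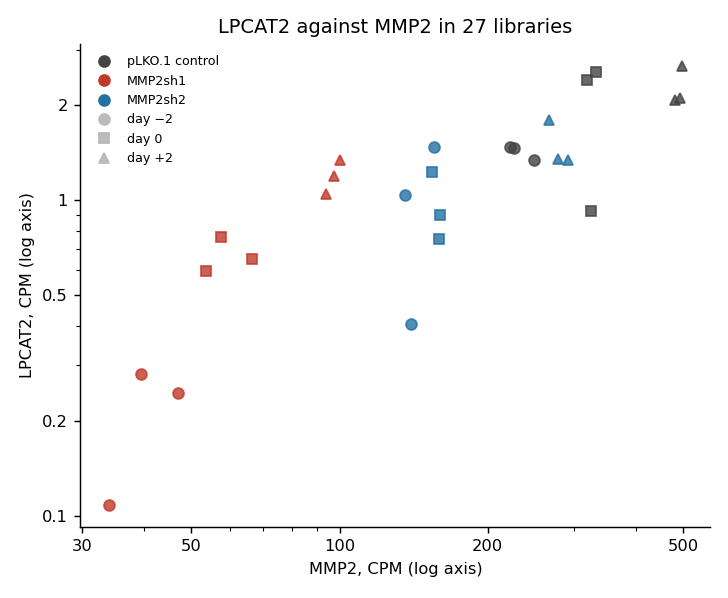
LPCAT2 (vertical axis, CPM, log scale) against MMP2 (horizontal axis, CPM, log scale) in 27 libraries, coloured by line and shaped by day. The MMP2sh1 libraries of day −2 sit at the lower left, at 0.1082 to 0.2803 CPM of LPCAT2, and the control library of day 0 at 0.9239 CPM lies below the other control libraries.

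Set against its neighbour, LPCAT2 did not keep one ratio to MMP2. In the control there were 6.18 ± 0.663 reads of LPCAT2 per 1000 reads of MMP2 on day −2, 6.04 ± 2.76 on day 0 and 4.67 ± 0.613 on day +2 (SD, n = 3). In MMP2sh2 the ratios were 6.67 ± 3.39, 6.12 ± 1.68 and 5.41 ± 1.16. In MMP2sh1 the ratio was 5.16 ± 1.95 on day −2, within the range of the other lines, but 11.4 ± 1.75 on day 0 and 12.3 ± 1.11 on day +2. On both later days every MMP2sh1 ratio, from 9.85 upward, was above every ratio of the other lines. Over the 9 group means of log2 CPM, the genes whose pattern was most like that of LPCAT2 were FGD5-AS1 (Pearson's r = 0.97) and CHD3 (r = 0.962), among 15135 genes with a mean of at least 1 CPM. MMP2 was the 5th of these, with r = 0.941. The next member was IRX3, with r = 0.693 and rank 1196. The 9 points share libraries with the comparison that chose LPCAT2, so these values are descriptions.

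LPCAT2 was higher on the last day than on the first within the MMP2sh1 line. From day −2 to day +2 its log2 fold change was 2.46 in MMP2sh1 (standard error 0.52), which is a description with no test, since these libraries chose the gene and it passed the filter there through its day +2 libraries. The reads were 4 to 13 per library on day −2. The log2 fold change was 0.68 in the control (standard error 0.27, adjusted p = 0.0343, edgeR) and 0.65 in MMP2sh2 (standard error 0.40, adjusted p = 0.17), where it did not pass. The control libraries also took part in choosing LPCAT2, so the call in the control is not read further. The MMP2sh1 value with each library left out in turn was 2.17 to 2.72. The call in the control was lost without any 1 of 4 libraries (day −2 replicates 1, 2 and 3, adjusted p = 0.0618, 0.0584 and 0.0652, and day +2 replicate 1, adjusted p = 0.131) and with DESeq2 (adjusted p = 0.0556), with no filter on low counts (0.0615) and with all 27 libraries in 1 fit (0.109). The interaction of MMP2sh1 and day, which asks whether the change from day −2 to day +2 differed from that of the control, was 1.79 on the log2 scale (standard error 0.50), again as a description with no test. For MMP2sh2 the interaction was −0.03 (standard error 0.48, adjusted p = 0.99).

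The other enzymes that remodel phospholipid acyl chains were better read. LPCAT1, LPCAT3, LPCAT4, MBOAT1, MBOAT2 and MBOAT7 were all tested in every comparison. In MMP2sh2 against control, 0 of 6 were called on day −2 and 0 of 6 on day 0, beside 11.0% and 12.9% of all genes. On day +2, 1 of 6 was called, beside 6.32% of all genes. It was LPCAT1, which acts on the same lysophospholipid as LPCAT2, with a log2 fold change of −0.19 (standard error 0.06, adjusted p = 0.0411). In MMP2sh1 against control, 2 of 6 were called on day −2, beside 11.6% of all genes, MBOAT1 at −0.92 (standard error 0.14, adjusted p = 8.4e-05) and LPCAT1 at −0.24 (standard error 0.05, adjusted p = 0.00364). On day 0, 3 of 6 were called, beside 16.8%, with MBOAT1 and LPCAT1 lower at −0.65 and −0.31 and MBOAT2 higher at 0.22 (adjusted p = 0.000645, 8.7e-06 and 0.00161). On day +2, 0 of 6 were called in MMP2sh1, beside 14.8%. During expansion of the control, 1 of 6 rose and 3 fell, beside 28.1% and 28.6% of all genes. LPCAT3 rose by 0.22 (standard error 0.06, adjusted p = 0.00149) and LPCAT1 fell by 0.61 (standard error 0.05, adjusted p = 1.56e-10) on the log2 scale. The median of the 6 was −0.24, beside 0.03 for all genes tested. MBOAT1, a lysophosphatidylserine acyltransferase, had an interaction of MMP2sh1 and day of 0.69 (standard error 0.19, adjusted p = 0.02), and was 1 of 6 called beside 7.40% of all genes. This list was drawn up with earlier results of these data known, so its MMP2sh1 values against the control are descriptions.

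CAPNS2 and SLC6A2 had too few reads to be tested in any comparison. CAPNS2, an intronless gene for a small subunit of calpain proteases, had 1 read in all 27 libraries together, in control replicate 3 of day +2. SLC6A2, which encodes the noradrenaline transporter, had 40 reads in all. They were 1, 2 and 4 in the control on day −2, 1, 7 and 7 on day 0, and 1, 2 and 0 on day +2. In MMP2sh1 there were 0 reads on day −2, 1 on day 0 and 3 on day +2, each over 3 libraries, and in MMP2sh2 there were 2, 2 and 7. A count of 0 in 1 library allows up to 0.0505 to 0.0893 CPM at these depths, for counting error only. The ubiquitous calpain genes CAPNS1, CAPN1 and CAPN2 were tested in every comparison, and 3 of 3 fell during expansion of the control, where 28.6% of all genes tested fell, CAPN2 by 0.66 on the log2 scale (standard error 0.05, adjusted p = 1.67e-12). SLC6A3 and SLC6A4, the dopamine and serotonin transporters, had 25 and 319 reads in all 27 libraries.

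Among the Iroquois genes, which encode homeodomain transcription factors, IRX3 was the best read. In the control it was at 15.89, 16.86 and 19.1 CPM on day −2, at 22.02, 20.24 and 20.37 on day 0, and at 33.84, 35.04 and 38.13 on day +2. In MMP2sh2 it was at 17.01, 17.64 and 17.4 CPM on day −2, at 21.45, 21.52 and 21.43 on day 0, and at 25.5, 28.89 and 24.96 on day +2. In MMP2sh1 it was at 13.31, 15.89 and 20.87 CPM on day −2, at 18.32, 18.87 and 19.66 on day 0, and at 25.83, 25.92 and 23.62 on day +2. On day +2 every library of either depleted line lay below every control library, while on day −2 the 3 lines overlapped. In MMP2sh2 the log2 fold change on day +2 was −0.43 (standard error 0.08, adjusted p = 0.000192, edgeR). It stayed between −0.50 and −0.38 with each library left out and was called under every alternative. In MMP2sh1 it was −0.51 (standard error 0.08), given with no test since that comparison was used in listing the genes.

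IRX3 rose during expansion in each line. From day −2 to day +2 the log2 fold change was 1.06 in the control (standard error 0.08, adjusted p = 2.02e-11), 0.59 in MMP2sh1 (standard error 0.12, adjusted p = 0.000235) and 0.61 in MMP2sh2 (standard error 0.09, adjusted p = 1.07e-06). The values of both depleted lines were below that of the control. With each library left out in turn, the MMP2sh1 value ran from 0.445 to 0.769 and stayed called. The interaction was −0.44 for MMP2sh2 (standard error 0.12, adjusted p = 0.0274, edgeR). For MMP2sh1 it was −0.46 (standard error 0.16), given with no test since MMP2sh1 against control was used in listing the genes. The adjusted p for MMP2sh2 was 0.0503 with all 27 libraries in 1 fit. It was also over the threshold without control day −2 replicates 1 or 2 (0.125 and 0.062), control day +2 replicates 2 or 3 (0.0569 and 0.125), MMP2sh2 day −2 replicate 2 (0.0555) or MMP2sh2 day +2 replicates 1 or 3 (0.0859 and 0.0787). Its value stayed between −0.52 and −0.37.

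IRX5, which shares its upstream region with CRNDE, had 1 to 32 reads per library. In the control it had 6, 10 and 4 reads on day −2, 25, 14 and 4 on day 0, and 16, 32 and 21 on day +2, so the first and last days did not overlap. It passed the filter on low counts in this comparison through its day +2 libraries. Its log2 fold change over the expansion was 1.93 in the control (standard error 0.62), given with no test for that reason. In MMP2sh1 it had 9, 13 and 8 reads on day −2 and 18, 12 and 14 on day +2, and in MMP2sh2 it had 16, 12 and 2, then 11, 25 and 15. Neither passed (adjusted p = 0.432 and 0.347). IRX5 was too low to be tested between the lines on day −2, and between MMP2sh2 and control on day 0.

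IRX6 was the member nearest to MMP2 upstream, 58.9 kb from the start that the GENCODE annotation gives MMP2. It was at 1.316 to 3.828 CPM in the control. In the control it was at 1.559, 1.783 and 1.462 CPM on day 0 and at 2.668, 3.828 and 2.903 on day +2, with no overlap. The log2 fold change between these days was 0.99 (standard error 0.25, adjusted p = 0.00153). From day −2, where the 3 libraries were spread from 1.316 to 3.031 CPM, to day +2 the adjusted p was 0.0513. This change was called with no filter, with 10 counts asked of every library, with the replicate block, with all 27 libraries in 1 fit, and without control day −2 replicate 2. In MMP2sh1 IRX6 was at 2.239 ± 0.694, 2.178 ± 0.457 and 2.212 ± 0.260 CPM (SD, n = 3) at the 3 days, and in MMP2sh2 at 2.042 ± 0.243, 1.971 ± 0.262 and 2.440 ± 0.241. IRX6 was not called in either depleted line over the expansion. Of the Iroquois genes of the other cluster, on chromosome 5, IRX1 and IRX2 had 34 and 12 reads in all libraries. IRX4 rose by 0.97 in the control (standard error 0.13, adjusted p = 2.3e-07), by 0.67 in MMP2sh1 (adjusted p = 0.000343) and by 0.72 in MMP2sh2 (adjusted p = 1.55e-05) on the log2 scale.

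CRNDE, a long noncoding RNA named for its high level in colorectal tumours, was at 9.07, 11.18 and 10.59 CPM in the control on day −2, at 11.48, 10.59 and 8.87 on day 0, and at 14.33, 14.35 and 13.6 on day +2. The libraries of day +2 lay above all others of the control. The log2 fold change from day −2 to day +2 was 0.47 in the control (standard error 0.11, adjusted p = 0.000584), 0.60 in MMP2sh1 (standard error 0.11, adjusted p = 8.89e-05) and 0.47 in MMP2sh2 (standard error 0.12, adjusted p = 0.001). All 3 calls held with each library left out. CRNDE was at 96.6% to 121% of the control mean in the depleted lines over the 3 days, with overlapping libraries at each.

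GNAO1 and NUP93, the 2 members farthest downstream, fell with density. GNAO1 encodes the alpha subunit of Go, a G protein most abundant in neurons. It was at 31.83, 27.99 and 34.16 CPM in the control on day −2, at 29.14, 29.42 and 29.88 on day 0, and at 14.68, 13.54 and 14.18 on day +2. Days −2 and 0 overlapped and day +2 lay far below both. The log2 fold change from day −2 to day +2 was −1.14 in the control (standard error 0.09, adjusted p = 1.25e-11), −1.50 in MMP2sh1 (standard error 0.11, adjusted p = 5.73e-11) and −1.26 in MMP2sh2 (standard error 0.10, adjusted p = 1.26e-12). The interaction with day was not called for MMP2sh2 (adjusted p = 0.708). For MMP2sh1 it was −0.35 (standard error 0.15), given with no test since MMP2sh1 against control was used in listing the genes. Of the 2 neuronal markers listed, RBFOX3 had mean levels of 13.72, 9.765 and 3.239 CPM in the control at the 3 days, and SNAP25 of 7.249, 6.668 and 9.738. Their part in the result for GNAO1 was not tested. On day +2 GNAO1 was at 13.11, 11.9 and 10.37 CPM in MMP2sh1, below the control libraries and at 83.4% of their mean, and at 15.97, 14.21 and 12.19 CPM in MMP2sh2, which overlapped with them.

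NUP93 encodes a scaffold nucleoporin of the inner ring of the nuclear pore. It was at 151.7, 149.6 and 146.4 CPM in the control on day −2, at 128.5, 131.2 and 145.1 on day 0, and at 96.48, 102.8 and 102.2 on day +2. The 3 days did not overlap. The log2 fold change over the expansion was −0.56 in the control (standard error 0.05, adjusted p = 1.71e-10), −0.75 in MMP2sh1 (standard error 0.06, adjusted p = 2.35e-10) and −0.76 in MMP2sh2 (standard error 0.06, adjusted p = 5.3e-12). On day −2 NUP93 was at 164.8 ± 4.54 CPM in MMP2sh1 and 165.0 ± 10.7 in MMP2sh2 (SD, n = 3), each above the control without overlap, and on day +2 it was at 98.1% and 96.6% of the control mean. In MMP2sh2 on day −2 the unadjusted p was 0.0176 and the adjusted p 0.105.

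Relatives of both genes by role fell in part. The inner ring nucleoporins NUP35, NUP155, NUP188 and NUP205 fell in 4 of 4 cases in the control from day −2 to day +2, beside 28.6% of all genes, NUP155 by 0.60 (standard error 0.05, adjusted p = 6.76e-11) on the log2 scale. In MMP2sh1 4 of 4 fell, beside 27.7% of all genes, and in MMP2sh2 3 of 4, beside 27.1%, where NUP35 had a log2 fold change of −0.02 (adjusted p = 0.89). The medians were −0.36, −0.37 and −0.37, beside 0.03, 0.04 and 0.05 for all genes tested. Of the related alpha subunits GNAI1, GNAI2, GNAI3 and GNAZ, 3 of 4 fell and 1 rose in the control, beside 28.6% and 28.1% of all genes. GNAI1 fell by 0.35 (standard error 0.07, adjusted p = 0.000174) and GNAI2 rose by 0.20 (standard error 0.05, adjusted p = 0.000462). In MMP2sh1 and in MMP2sh2, 2 of 4 fell, beside 27.7% and 27.1%.

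**Figure D3:**
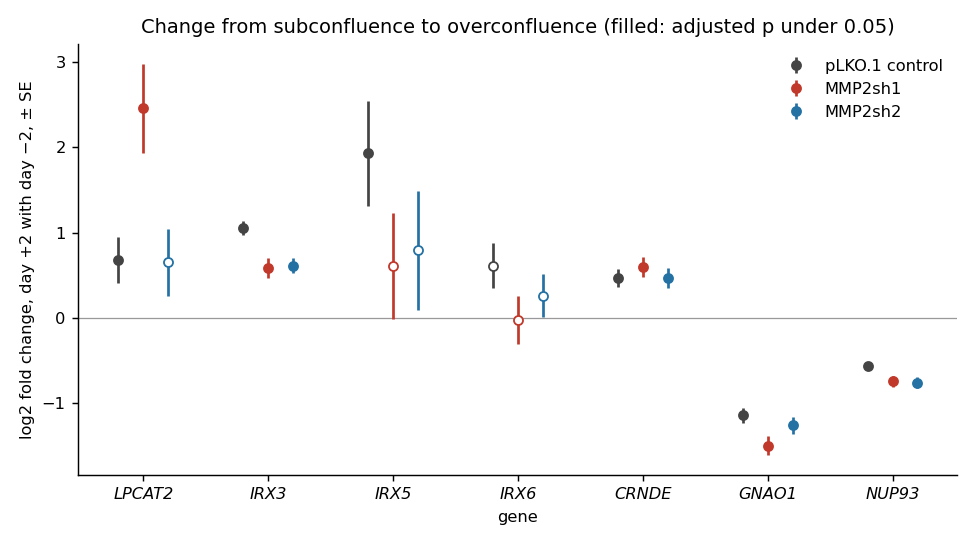
Log2 fold change from day −2 to day +2 (vertical axis) with its standard error (bars) for 7 members in the pLKO.1 control (grey), MMP2sh1 (red) and MMP2sh2 (blue), with filled points where the adjusted p was under 0.05. IRX3 and CRNDE lie above 0 and GNAO1 and NUP93 below 0 in all 3 lines, and the MMP2sh1 value of LPCAT2 is the highest point, at 2.46. The MMP2sh1 point of LPCAT2 and the control point of IRX5 are descriptions with no test. The control point of LPCAT2 is from libraries that took part in choosing the gene.

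RefSeq promoter sequences were at hand for 4 of the 9 members, CAPNS2, CRNDE, GNAO1 and NUP93. The 250 bases before the start are shown for the 2 genes that fell with density and for CRNDE, which rose. Coordinates are of GRCh38.p14, not of the build of the counts. Capitals mark matches to 5 motifs searched on both strands, namely the cAMP response element TGACGTCA, the CCAAT box CCAAT, the GC box GGGCGG, the TATA box TATAAA and an E2F site TTTNGCGC.
GNAO1 (chr16:56191239-56191488, plus strand): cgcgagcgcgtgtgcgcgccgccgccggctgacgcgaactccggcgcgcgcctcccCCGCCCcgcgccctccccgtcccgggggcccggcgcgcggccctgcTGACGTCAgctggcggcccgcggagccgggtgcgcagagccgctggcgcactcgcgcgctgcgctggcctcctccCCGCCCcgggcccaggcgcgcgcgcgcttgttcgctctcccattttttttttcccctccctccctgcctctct
NUP93 (chr16:56729879-56730128, plus strand, the first of 3 listed starts): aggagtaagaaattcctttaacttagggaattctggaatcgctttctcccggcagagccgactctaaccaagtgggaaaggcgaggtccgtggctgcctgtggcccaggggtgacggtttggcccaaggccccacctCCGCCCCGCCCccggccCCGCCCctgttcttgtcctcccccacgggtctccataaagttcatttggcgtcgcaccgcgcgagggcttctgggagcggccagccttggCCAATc
CRNDE (chr16:54928887-54929136, minus strand): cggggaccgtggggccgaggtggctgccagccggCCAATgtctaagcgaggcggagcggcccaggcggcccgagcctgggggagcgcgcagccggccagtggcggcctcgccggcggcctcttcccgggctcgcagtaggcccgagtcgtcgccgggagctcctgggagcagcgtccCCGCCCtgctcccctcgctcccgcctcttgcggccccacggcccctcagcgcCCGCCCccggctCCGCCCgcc
The GNAO1 sequence holds 1 cAMP response element, 148 bases before the start, and 2 GC boxes. The cAMP response element is found in 1.65% of 35116 promoter windows of this length. NUP93 holds 3 GC boxes, of which 2 share 1 base, and 1 CCAAT box, 6 bases before the start. CRNDE holds 3 GC boxes and 1 CCAAT box. A GC box is found in 42.6% of all windows and a CCAAT box in 32% of them. None of the 3 sequences holds TATAAA or TTTNGCGC, which 10.7% and 1.51% of windows hold. The GC content was 79.2% for GNAO1, 62.8% for NUP93 and 80% for CRNDE, beside a median of 58% over all windows. For CAPNS2, the gene with 1 read, it was 35.2%, with 1 CpG, and 5.67% of windows had a lower value. These letters are descriptions of the windows and no measure of binding.

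Counted over the 9 members, the share called can be read against that of all genes tested. In the control, 2 members were called from day −2 to day 0 (IRX3 rose and NUP93 fell), where 35.5% of all genes tested were called. From day 0 to day +2, 5 of 7 tested were called, beside 41.4% of all genes, and from day −2 to day +2, 6 of 7, beside 56.8%. The last count includes LPCAT2, whose control libraries took part in choosing it, and IRX5, which passed the filter through its higher group. Over the expansion, 5 of 7 were called in MMP2sh1, beside 54.9% of all genes, and 4 of 7 in MMP2sh2, beside 54.7%. The MMP2sh1 count includes LPCAT2, which passed the filter there through its higher group. With 7 members tested, no test sets these shares apart from those of all genes. The first 2 calls were small. IRX3 rose by 0.28 (adjusted p = 0.014) and NUP93 fell by 0.14 (adjusted p = 0.0269) on the log2 scale. The IRX3 call was lost without replicate 1 of either day (adjusted p = 0.101 and 0.0783), and the NUP93 call without replicate 1 or 2 of either day (0.0714 to 0.168).

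In MMP2sh2 against control, 0 of 6 members tested were called on day −2, where 11.0% of all genes were. At an unadjusted p under 0.05 there was 1, NUP93, which DESeq2 also called. On day 0, 1 of 6 was called (LPCAT2), beside 12.9%, and on day +2, 1 of 7 (IRX3), beside 6.32%. The LPCAT2 call is not read further, since its control libraries took part in choosing the gene. In MMP2sh1, 1 of 6 members tested passed the threshold on day −2 and 1 of 7 on day 0, both LPCAT2, and 2 of 7 on day +2, LPCAT2 and IRX3. The shares of all genes were 11.6%, 16.8% and 14.8%. These counts are not read further, since the genes were listed with that comparison known. For the interaction of line and day, 1 of 7 was called for MMP2sh1 (LPCAT2, beside 7.40% of all genes), which is not read further either, and 1 of 7 for MMP2sh2 (IRX3, beside 4.98%).

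The wider region gives the same comparison at a distance. A list of 26 further genes from CHD9 to POLR2C, which leaves out the metallothioneins, was tested beside the members. In MMP2sh2 against control, 3 of 20 tested were called on day −2, 3 of 21 on day 0 and 2 of 21 on day +2, beside 11.0%, 12.9% and 6.32% of all genes. On day 0 all 3 were lower, with ARL2BP, which encodes a binding partner of a small GTPase, at −0.41 (standard error 0.09, adjusted p = 0.00108). Other annotated genes cover 91.3% of the exon bases of ARL2BP, so its count is uncertain. On day +2 HERPUD1, a gene of the endoplasmic reticulum stress response, was higher by 0.29 (standard error 0.07, adjusted p = 0.00344) and the chemokine gene CX3CL1 was lower, at −0.25 (standard error 0.06, adjusted p = 0.00967). On day −2 ARL2BP was at −0.27 (standard error 0.09, adjusted p = 0.0406). The medians of the list were −0.00332, −0.0930 and 0.0137, beside 0.0025, −0.0032 and −0.00075 for all genes. In MMP2sh1 against control, 2 of 21, 4 of 22 and 5 of 20 were called at the 3 days, beside 11.6%, 16.8% and 14.8% of all genes. COQ9, which encodes a lipid-binding protein of coenzyme Q synthesis, lay 1940.7 kb downstream of MMP2 and was lower in MMP2sh1 by log2 fold changes of −0.85 (standard error 0.08, adjusted p = 2.46e-08) on day −2, −0.71 (standard error 0.07, adjusted p = 2.86e-09) on day 0 and −0.68 (standard error 0.08, adjusted p = 1.14e-07) on day +2. It was not among the genes called in MMP2sh2. HERPUD1 was higher in MMP2sh1 on day +2 by 0.59 (standard error 0.07, adjusted p = 2.44e-07), and PLLP, a myelin protein gene, was at −0.86 (standard error 0.23, adjusted p = 0.00928). The list was drawn up with earlier results of these data known, so its MMP2sh1 values against the control are descriptions. During expansion of the control, 6 of 20 rose and 6 fell, beside 28.1% and 28.6% of all genes, PLLP by 3.08 upward (standard error 0.31, adjusted p = 2.76e-09) and CIAPIN1 by 0.52 downward (standard error 0.06, adjusted p = 1.7e-08) on the log2 scale. PLLP had only 12 to 26 reads per library in the control on day −2, and other annotated genes cover 19.9% of its exon bases.

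**Figure D4:**
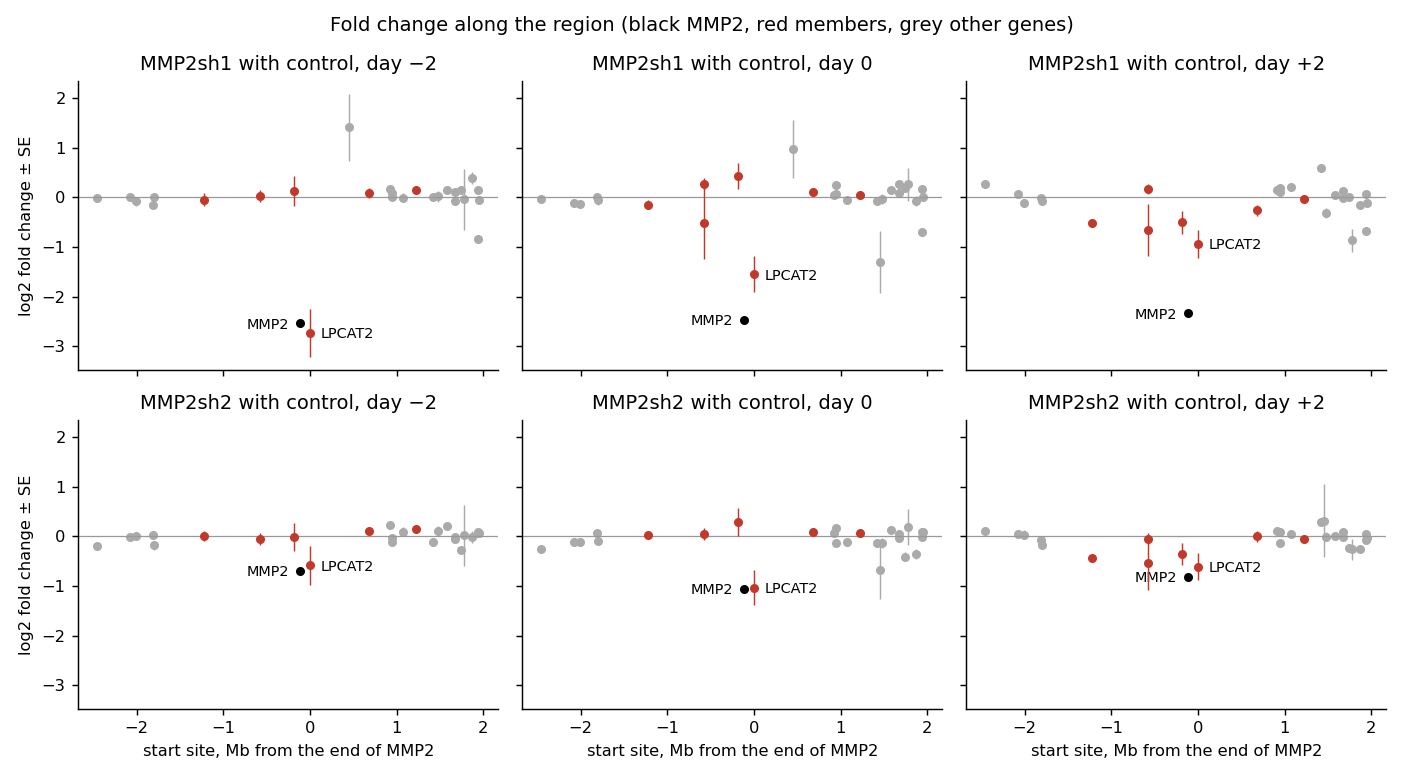
Log2 fold change against control (vertical axis) with its standard error (bars) by the distance of each gene's start site from the end of MMP2 (horizontal axis, Mb) for MMP2sh1 (upper row) and MMP2sh2 (lower row) on days −2, 0 and +2, with MMP2 in black, tested members in red and the other genes of the region in grey. LPCAT2 is the red point beside MMP2, at −2.72, −1.55 and −0.94 in MMP2sh1 and at −0.58, −1.04 and −0.61 in MMP2sh2.

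Per kilobase of annotated exon, the members differed by orders of magnitude. In the control on day −2, MMP2 was at 49.3 ± 3.02 CPM per kb (SD, n = 3), NUP93 at 13.4 ± 0.242, IRX3 at 5.89 ± 0.561 and GNAO1 at 2.15 ± 0.214. CRNDE and IRX6 followed at 0.697 ± 0.0737 and 0.694 ± 0.300, which did not differ beyond their spread. LPCAT2 was at 0.194 ± 0.00976 and IRX5 at 0.0537 ± 0.0258. On day +2 the order of the leading members had turned, with IRX3 at 12.2 ± 0.755 and NUP93 at 9.04 ± 0.314, and IRX6, GNAO1 and CRNDE were close together at 1.06 ± 0.208, 0.971 ± 0.0390 and 0.957 ± 0.0293. Exon lengths are the union over GENCODE transcripts, which may not be those used in counting. Over the 9 group means of log2 CPM, GNAO1 and NUP93 were alike (r = 0.964), and each ran against CRNDE (r = −0.923 and −0.91). The 9 means share the change with density, so these correlations are descriptions.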

How the data were processed

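For the deposited read counts, which are whole and not normalized, the authors used Trim Galore 0.6.0 for trimming, STAR 2.7.3a for alignment to hg19, Samtools to drop poor alignments, and HTSeq 2.0.0 without strand to count each gene symbol. The 5 summary lines, 16.8% to 19.1% of each file, stayed out of library sizes and tests. Each comparison was fitted on its own 6 libraries (12 for interactions) with edgeR 4.0.16 in R 4.3.3, after TMM scaling and filterByExpr (at least 10 counts, total of 15 or more). P-values of its quasi-likelihood test were adjusted by Benjamini-Hochberg over all genes tested, and genes under 0.05 were called. The study's own tests used DESeq2, which was run as an alternative. The standard error is the log2 fold change divided by the square root of F. Pattern likeness used log2(CPM + 0.5).

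The members and lists were chosen with earlier results of these data known. The named genes were the 9 members, MMP2, the called gene with the largest rise and the largest fall of each list, and the 3 genes most like LPCAT2. Of these, 2 genes are not reported here. The alternatives were DESeq2 1.42.0, median-of-ratios scaling, no filter, at least 10 counts in every library, a replicate block, edgeR on all 27 libraries and each library left out. Fits of MMP2sh2 against control on day +2 and of its interaction with day were tested on simulated data. Changes were put only into genes above a set mean count, so genes with few reads were not covered. Positions are from GENCODE v44 on GRCh37, and promoters from RefSeq on GRCh38.p14. Replicates of a group differed by more than counting noise in 27 of 27 pairs (chi-square per degree of freedom 4.68 to 24.1). The highest values, 19.2 and 24.1, were those of MMP2sh1 day −2 replicate 1 against replicates 2 and 3, which were at 7.77 against each other. Replicate 1 also had the lowest LPCAT2 and IRX3 levels of that group. PECAM1 was not analysed here.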

Additional observations from a re-analysis of the deposited data

Results flagged for a closer look

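The change of LPCAT2 from day −2 to day +2 differed between MMP2sh1 and the control, by an interaction of 1.785 on the log2 scale, a description with no test, since these libraries chose the gene. The reads per library in MMP2sh1 were 4, 13 and 10 on day −2 and 46, 41 and 56 on day +2, and those in the control were 85, 62 and 46, then 94, 85 and 87. Asking each library for 10 counts or more removed the gene.

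The change of IRX3 over the same days differed between MMP2sh2 and the control, by −0.4436 (adjusted p = 0.0274, edgeR). The call was close to the threshold. It held in 5 of 12 fits with 1 library left out, and was lost with all 27 libraries in 1 fit. All 3 lines rose, and the level reached at day +2 was 35.67 CPM in the control, 26.45 in MMP2sh2 and 25.12 in MMP2sh1.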

How the results depend on the processing

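The number of members called moved by over 1.5 times under these alternatives. In MMP2sh1 against control it was 2 at day −2 with DESeq2 and 0 when 10 counts were asked of each library, which removes LPCAT2, and 1 at day +2 on all 27 libraries. In MMP2sh2 it was 1 at day −2 with DESeq2, and 0 at day 0 with DESeq2, the replicate block or all 27 libraries. For the interaction of MMP2sh1 and day it was 2 with no filter and 2 on all 27 libraries, and for that of MMP2sh2 it was 0 on all 27 libraries. With each library left out, the counts ran from 1 to 2 in MMP2sh1 at day 0, 1 to 3 at day +2, 0 to 1 in MMP2sh2 at days −2 and 0, 0 to 2 in the control from day −2 to day 0, 0 to 2 for the interaction of MMP2sh1 and 0 to 1 for that of MMP2sh2. Over the expansion it moved less, to 5 with DESeq2 and 4 to 6 over the libraries left out in the control, 4 with 10 counts in each library of MMP2sh1, and 5 without MMP2sh2 day −2 replicate 3. The cause was not tested.

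The uncalled interaction of MMP2sh2 and day for LPCAT2 turned to 0.0275 with the replicate block and ran from −0.41 to 0.40 over the libraries left out, and the uncalled change of LPCAT2 in the control from day 0 to day +2 ran from −0.0940 to 0.48. Same-numbered libraries did not deviate together (r from −0.0975 to 0.0738 over 33 pairs), so the numbers were not taken to pair samples, and the replicate block changed the number called at day 0 in MMP2sh2 (0 in place of 1, with LPCAT2 at adjusted p = 0.0565) and over the expansion of the control (7 in place of 6, with IRX6). Low counts limit LPCAT2 and IRX5 most, and CAPNS2 and SLC6A2 cannot be compared at this depth.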
